A study of Homo sapiens with 8 samples.

Results

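The response to cisplatin was measured in 143B cells that stably carry an shRNA against ZDHHC8. It was set out as 2 libraries of shZDHHC8 cells treated with cisplatin for 48 h against 2 libraries of shZDHHC8 cells treated with vehicle, which are 4 of the 8 libraries of a 2 × 2 study. The table lists 21123 genes, and all of them were considered. The 13495 genes with at least 1 FPKM (fragments mapped to a gene, scaled for its length and for the size of the library) in 2 or more libraries were tested. The table does not name its unit, and FPKM was inferred from the values. The other pair of groups consists of cells with a control shRNA (shControl), also given cisplatin or vehicle, with 2 libraries each. The vehicle is labelled as PBS. All 4 groups share the 143B line, a stable shRNA and batch 1, and the libraries of a group are labelled as biological replicates. The sources used here do not give the dose of cisplatin, the shRNA sequence or whether the stable cells are a clone or a pool.

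Cisplatin is a platinum drug that forms crosslinks between neighbouring purines and, less often, between the strands of DNA. The crosslinks stall replication forks and elongating RNA polymerases, and cells answer with the ATR checkpoint, excision and crosslink repair, stress kinases and NF-kB. ZDHHC8 is a palmitoyltransferase, an enzyme that attaches the fatty acid palmitate to cysteines of proteins. The 143B line is a human osteosarcoma line derived from HOS cells by transformation with a viral Ki-ras gene. Osteosarcoma is treated with cisplatin in the clinic.

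The column totals lay between 361060 and 391016 FPKM, and the read depth behind the values is unknown. Pearson's r of log2 values over tested genes was 0.995 to 0.996 between libraries of a group, and 0.977 to 0.978 between cisplatin and vehicle libraries of shZDHHC8 cells. The osteoblast genes RUNX2 (9 to 14.1 FPKM over the 8 libraries) and SPP1 (56.5 to 275 FPKM) were present, whereas BGLAP, IBSP and COL1A2 stayed below 1 FPKM in every library. The keratins KRT8 and KRT18, commonly used as epithelial markers, were also present, at 414 to 654 and 134 to 206 FPKM, while CDH1 reached at most 0.392 FPKM. The summed level of 5 leukocyte markers was 1.16 and 0.54 FPKM in shZDHHC8 cells with cisplatin and 0.35 and 0.27 FPKM with vehicle, with CD3E at 0 in every library. VWF, the endothelial marker listed, was at most 0.118 FPKM and the 2 adipocyte markers summed to at most 0.547 FPKM. By contrast TUBB3, the neural marker listed, was present at 54.7 to 97.1 FPKM over the 8 libraries. The sources used here do not say whether the libraries keep the strand, so the values of genes that overlap another listed gene are uncertain, which applies to 84 of the 221 called genes that follow the naming rule. In bulk samples, fewer cells of a kind and less RNA per cell cannot be told apart.

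ZDHHC8 itself was at 23.5 and 22.3 FPKM in shZDHHC8 cells with cisplatin, against 14.3 and 9.81 FPKM with vehicle. In shControl cells it was at 32.3 and 32.8 FPKM with cisplatin and 23.7 and 23.1 FPKM with vehicle. Each shZDHHC8 library lay below each shControl library of the same treatment, and the cisplatin-treated shZDHHC8 cells held about as much ZDHHC8 RNA as shControl cells with vehicle. The change with cisplatin in shZDHHC8 cells was 0.89 ± 0.13 (SE) on the log2(FPKM + 1) scale, higher in 4 of 4 pairs of libraries (limma adjusted p = 0.000717). It differed from that in shControl cells (0.46) by 0.43, which did not pass (limma adjusted p = 0.111), but without shZDHHC8 vehicle replicate 1 the difference was 0.68 and passed (limma adjusted p = 0.0019). CTNNB1, which encodes beta-catenin, the transcriptional co-activator of the WNT pathway named in the series title, was at 46.4 and 49.4 FPKM with cisplatin, against 51.7 and 53.7 FPKM with vehicle. Its change was -0.14 ± 0.048 (SE) (limma adjusted p = 0.0432). That call was lost without any 1 of 7 of the 8 libraries, among them shZDHHC8 cisplatin replicate 1 (-0.09, limma adjusted p = 0.248) and shZDHHC8 vehicle replicate 2 (-0.11, limma adjusted p = 0.158). After median-of-ratios scaling the change of CTNNB1 was -0.28 and passed (limma adjusted p = 0.0017). In shControl cells CTNNB1 changed by -0.48 (limma adjusted p = 3.94e-05). The difference between the 2 changes was 0.34 (limma adjusted p = 0.00676), and 0.26 after median-of-ratios scaling (limma adjusted p = 0.019).

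In shZDHHC8 cells, 4976 of 13495 genes were higher with cisplatin (36.9%) and 1841 were lower (13.6%), at a limma adjusted p below 0.05. Most changes were small. Past a change of 1 on the log2 scale, 132 genes were higher (0.978%) and 69 lower (0.511%). The median change of all tested genes was 0.13, so a gene at 0.13 stood at the middle of the distribution. After median-of-ratios scaling, which sets the middle near 0 (median 0.0047), the split turned to 2944 genes higher (21.8%) and 3070 lower (22.7%), with 83 (0.615%) and 111 (0.823%) past 1 on the log2 scale. Directions of small changes therefore depend on the scaling, and for each gene list the counts after that scaling follow those of the values as deposited. The shares over all tested genes, 36.9% and 13.6% as deposited and 21.8% and 22.7% after scaling, are the background for these counts. All 221 named genes that were called changed the same way in all 4 pairs of a cisplatin and a vehicle library, which the naming rule required of the largest rises and falls and which 7120 of all tested genes (52.8%) did as higher and 3137 (23.2%) as lower. Of the classes, 4485 of 11869 tested protein-coding genes were higher and 1733 lower. Long non-coding genes had 354 of 1154 higher and 76 lower.

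The steepest rises included stress regulators and inflammatory genes. ATF3 (ENSG00000162772, chromosome 1, positions 212565334 to 212620777 of hg38), a transcription factor induced by many stresses, was at 28.4 and 29.1 FPKM with cisplatin, against 5.45 and 5.47 FPKM with vehicle. The libraries of a group differed by less than 1 FPKM and the groups did not overlap; the change was 2.20 ± 0.053 (SE) (limma adjusted p = 2.38e-07). PPP1R15A, also called GADD34, encodes the phosphatase subunit that reverses phosphorylation of eIF2 alpha. It reached 106 and 105 FPKM with cisplatin and 32.1 and 33.5 FPKM with vehicle, a change of 1.66 ± 0.051 (SE) (limma adjusted p = 7.48e-07). SGK1, a kinase of the AGC family that promotes survival, was at 23 and 23.9 FPKM with cisplatin and 6.37 and 6.82 FPKM with vehicle. TSPYL2, a nucleosome assembly protein family member that restrains the cell cycle, stood at 8.93 and 8.48 FPKM with cisplatin and 1.90 and 2.11 FPKM with vehicle. These 2 genes changed by 1.69 and 1.69 (limma adjusted p = 3.85e-06 and 4.72e-06). ANKRD1, a YAP-responsive ankyrin repeat protein first described in heart muscle, was at 57 and 52.7 FPKM with cisplatin and 15.9 and 17 FPKM with vehicle. SLC25A25, a calcium-regulated mitochondrial ATP-Mg carrier that overlaps SLC25A25-AS1, was at 14.9 and 15.5 FPKM with cisplatin and 4.57 and 3.93 FPKM with vehicle. The readthrough genes AC138811.2 and RPL17-C18orf32 are also among the 12 largest rises, but they share their strand with their parent genes. The change of AC138811.2 was 2.36 ± 0.73 (SE), above the 2.20 of ATF3. AC138811.2 was at 5.85 and 26.4 FPKM with cisplatin and 0.482 and 3.81 FPKM with vehicle, and its call was lost without shZDHHC8 cisplatin replicate 2 (1.36, limma adjusted p = 0.167) or shZDHHC8 vehicle replicate 1 (1.51, limma adjusted p = 0.171).

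**Figure D1:**
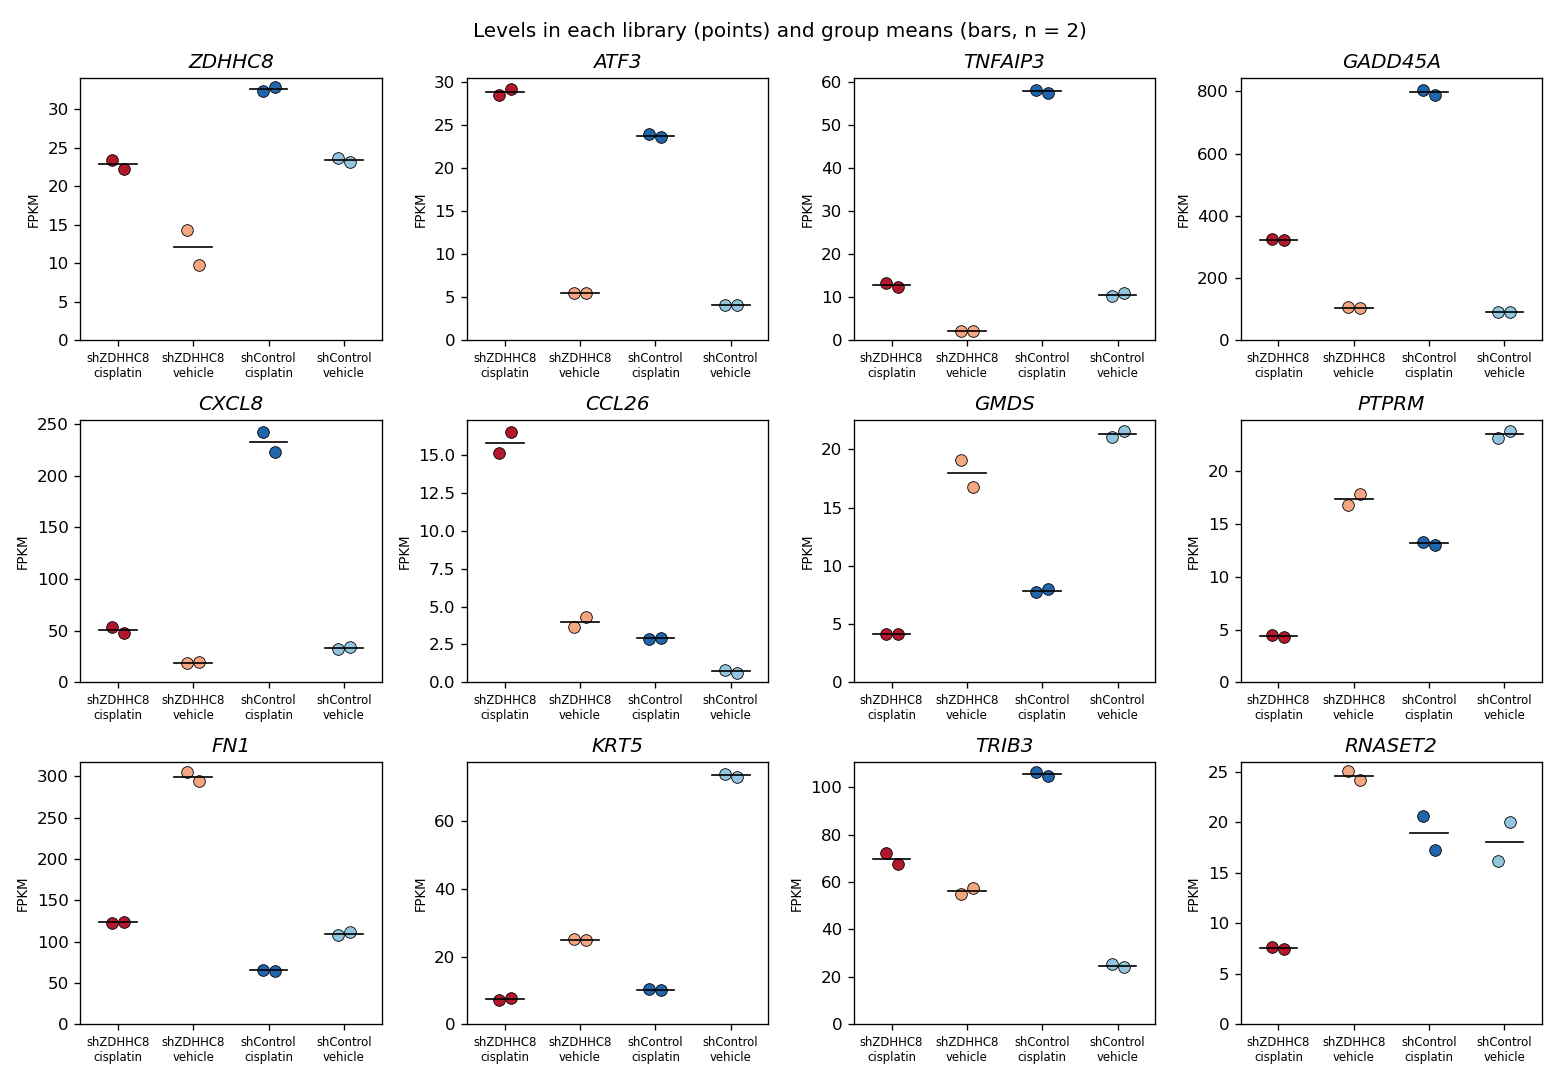
FPKM (y axis, from 0) of 12 genes in each of the 8 libraries; points are libraries and bars are means of 2 libraries, with cisplatin left of vehicle in shZDHHC8 (reds) and shControl cells (blues). ATF3, TNFAIP3, GADD45A, CXCL8 and CCL26 are higher with cisplatin in both backgrounds, GMDS, PTPRM, FN1 and KRT5 are lower, and RNASET2 is lower in shZDHHC8 cells with no such gap in shControl cells.

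NF-kB is a family of dimeric transcription factors held back by inhibitor proteins, some of which are its own targets. Of its subunits and feedback inhibitors, 18 of 23 rose and 0 fell with cisplatin (16 and 0 after median-of-ratios scaling), against 36.9% and 13.6% of all tested genes, and the median change was 0.44. TNFAIP3 (ENSG00000118503, chromosome 6, positions 137867214 to 137883312), which encodes the ubiquitin-editing inhibitor A20 and overlaps WAKMAR2, was at 13.3 and 12.4 FPKM with cisplatin and 2.12 and 2.14 FPKM with vehicle, a change of 2.14 ± 0.061 (SE) (limma adjusted p = 5.48e-07). Both subunits of the non-canonical pathway rose. NFKB2 was at 23.1 and 22.7 FPKM with cisplatin and 9.35 and 8.07 FPKM with vehicle, and RELB at 10.1 and 8.18 FPKM with cisplatin and 3.05 and 3.39 FPKM with vehicle (limma adjusted p = 7.49e-06 and 2.23e-05). The inhibitor NFKBIB and the deubiquitinase CYLD changed by 1.12 and 0.74. NFKBIA, the best known inhibitor and target, was at 25.5 and 21.6 FPKM with cisplatin and 21.3 and 19.6 FPKM with vehicle, a change of 0.19 that did not pass (limma adjusted p = 0.095).

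Among cytokines and chemokines, 9 of 16 rose and 2 fell (9 and 3 after scaling), with a median change of 0.60; 22 of 27 were listed. The eosinophil chemokine CCL26 reached 15.1 and 16.5 FPKM with cisplatin and 3.67 and 4.31 FPKM with vehicle, a change of 1.75 ± 0.092 (SE) (limma adjusted p = 7.27e-06). IL6 (ENSG00000136244, chromosome 7, positions 22725884 to 22732002), a pleiotropic inflammatory cytokine that overlaps IL6-AS1, was at 7.22 and 7.76 FPKM with cisplatin and 1.64 and 2.12 FPKM with vehicle. CXCL8, the neutrophil chemoattractant interleukin 8, was at 53.8 and 48 FPKM with cisplatin and 18.4 and 19.9 FPKM with vehicle. The changes of IL6 and CXCL8 were 1.56 and 1.36 (limma adjusted p = 6.82e-06 and 7.02e-06), with no overlap between the groups. TNF and CCL20 stayed below 2 FPKM in all 4 shZDHHC8 libraries and rose by 0.92 and 1.00. The 2 members that fell were CXCL1 (-0.47) and TNFSF10 (-0.47).

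The 100 bases before the RefSeq start of several of these genes hold the letters GGANTTTCC, a common form of the NF-kB site, on either strand. They are shown in lower case with matches in capitals, 5′ to 3′ on the strand of the gene, from RefSeq's GRCh38.p14. NFKBIA is shown because it holds a match although its change did not pass. PPP1R15A is shown because its window holds TGACGTCA, the palindromic CRE site of the ATF and CREB family.
TNFAIP3, chr6:137867159-137867258, plus strand: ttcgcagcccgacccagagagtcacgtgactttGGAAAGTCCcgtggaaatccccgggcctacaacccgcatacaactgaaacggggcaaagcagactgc
IL6, chr7:22727100-22727199, plus strand: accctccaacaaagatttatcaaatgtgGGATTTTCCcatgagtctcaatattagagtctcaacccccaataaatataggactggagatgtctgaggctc
CXCL8, chr4:73740469-73740568, plus strand: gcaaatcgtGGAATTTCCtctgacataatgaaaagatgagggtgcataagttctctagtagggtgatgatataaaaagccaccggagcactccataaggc
NFKBIA, chr14:35404750-35404849, minus strand: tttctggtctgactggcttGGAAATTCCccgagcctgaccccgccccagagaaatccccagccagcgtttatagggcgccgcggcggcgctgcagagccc
PPP1R15A, chr19:48872321-48872420, plus strand: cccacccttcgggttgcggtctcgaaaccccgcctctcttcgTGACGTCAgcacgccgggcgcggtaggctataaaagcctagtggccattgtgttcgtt
GGANTTTCC was found in 94 of the 9954 tested genes with such a window (0.944%), and in 6 of the 84 with a window among genes higher by at least 1 (7.14%). TGACGTCA was found in 246 of 9954 (2.47%) and in 5 of 84 (5.95%). TGANTCA, the AP-1 site, was found in 282 of 9954 (2.83%) and in 7 of 84 (8.33%). Among all genes called higher, GGANTTTCC was found in 0.815%, near the share over all tested genes, and among those called lower in 1.28%. For TGACGTCA these shares were 3.36% and 1.42%, and for TGANTCA 3% and 3.05%. Genes lower by at least 1 were not counted. Matches of the 3 motifs cannot overlap one another. A match is a run of letters and does not show that a factor binds there, and the genes were chosen for display after their matches were seen.

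Among genes that the p53 protein is known to induce, 16 of 29 rose and 1 fell (13 and 2 after scaling), with a median change of 0.30. GADD45A (ENSG00000116717, chromosome 1, positions 67685201 to 67688334), a growth arrest gene that other stress pathways also induce, was at 325 and 323 FPKM with cisplatin and 107 and 104 FPKM with vehicle, a change of 1.61 ± 0.04 (SE) (limma adjusted p = 2.38e-07). The CDK inhibitor p21, encoded by CDKN1A, was at 9.96 and 10.5 FPKM with cisplatin and 3.55 and 3.32 FPKM with vehicle, and the nuclease AEN at 15.7 and 15.8 FPKM with cisplatin and 5.66 and 5.80 FPKM with vehicle. Their changes were 1.34 and 1.31. MDM2, the p53 ubiquitin ligase and one of its most responsive targets, was at 3.98 and 3.94 FPKM with cisplatin and 3.13 and 3.54 FPKM with vehicle, which did not pass (0.20, limma adjusted p = 0.111). BBC3, BAX and ZMAT3, other direct targets chosen after their values were seen, changed by -0.03, 0.11 and 0.04 and did not pass either (limma adjusted p = 0.832, 0.179 and 0.755). The list was therefore split between members such as GADD45A, CDKN1A, AEN, PMAIP1 and BTG1 that rose and 12 that passed in neither direction.

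Of the BCL2 family, caspases and death receptors, 14 of 29 rose and 0 fell (9 and 3 after scaling), against 36.9% and 13.6% of all tested genes (21.8% and 22.7% after scaling). PMAIP1, the BH3-only protein NOXA, was at 81.2 and 85.5 FPKM with cisplatin and 42.4 and 43.4 FPKM with vehicle, a change of 0.94 ± 0.055 (SE) (limma adjusted p = 1.02e-05). BMF, another BH3-only gene, changed by 0.59, the initiator caspase CASP8 by 0.56 and cytochrome c, CYCS, by 0.50. The antiapoptotic BCL2 (-0.24) and BCL2L1 (-0.07) did not pass (limma adjusted p = 0.0557 and 0.211), whereas MCL1 rose by 0.27.

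Immediate-early genes are transcribed within minutes of a stimulus, and at 48 h 22 of 25 rose and 0 fell (14 and 0 after scaling), with a median change of 0.43. ATF3 led the list. MAFF, a small MAF transcription factor, was at 22 and 22.6 FPKM with cisplatin and 9.42 and 9.37 FPKM with vehicle, a change of 1.16 ± 0.056 (SE) (limma adjusted p = 5.64e-06). FOSB was low in all 4 libraries, at 1.54 and 1.95 FPKM with cisplatin and 0.365 and 0.389 FPKM with vehicle, and so was the nuclear receptor NR4A1, at 1.94 and 2.17 FPKM with cisplatin and 0.585 and 0.516 FPKM with vehicle. EGR1 was at 3.09 and 3.73 FPKM with cisplatin and 1.97 and 2.15 FPKM with vehicle, a change of 0.52. FOS, at 15.9 and 18.8 FPKM with cisplatin and 16 and 17.3 FPKM with vehicle, did not pass (0.05, limma adjusted p = 0.809). JUN changed by 0.13 (limma adjusted p = 0.021), the same as the median of all genes, and by -0.01 after median-of-ratios scaling. The call for JUN was also lost with only the 4 shZDHHC8 libraries (limma adjusted p = 0.0506). It was lost too without shZDHHC8 vehicle replicate 2 (0.12) or shZDHHC8 cisplatin replicate 1 or 2 (0.14 and 0.13). MYC changed by 0.30 and lost its call after that scaling (0.15, limma adjusted p = 0.0668). Of the phosphatases and inhibitors that MAP kinases induce against themselves, 12 of 17 rose and 1 fell (11 and 2 after scaling). The nuclear ERK phosphatase DUSP5 was at 57.2 and 57.6 FPKM with cisplatin and 26.1 and 26.5 FPKM with vehicle, and DUSP1 at 86.5 and 87.2 FPKM with cisplatin and 49.7 and 50.2 FPKM with vehicle, changes of 1.10 and 0.79.

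The integrated stress response is the arm in which phosphorylated eIF2 alpha favours translation of ATF4, whose targets include both stress regulators and genes of amino acid supply. Of its list, 12 of 33 rose and 14 fell (10 and 15 after scaling), and the median was 0.02. The regulators ATF3, PPP1R15A and DDIT3 rose most. DDIT3, the transcription factor CHOP, which overlaps several genes, was at 47.7 and 51.5 FPKM with cisplatin and 23 and 22.4 FPKM with vehicle, a change of 1.09 ± 0.072 (SE) (limma adjusted p = 1.62e-05). SLC3A2, the heavy chain of amino acid exchangers, was at 526 and 512 FPKM with cisplatin and 304 and 303 FPKM with vehicle. DDIT4, an mTORC1 inhibitor also called REDD1, went the other way, at 76.3 and 75.3 FPKM with cisplatin and 149 and 143 FPKM with vehicle (-0.93 ± 0.042 (SE), limma adjusted p = 4.72e-06). Amino acid genes, chosen after their values were seen, were among those that fell: the glycine transporter SLC6A9 (-0.71), the leucine transporter SLC7A5 (-0.52), asparagine synthetase ASNS (-0.35) and the serine synthesis enzymes PHGDH (-0.45) and PSAT1 (-0.41). ATF4 itself changed by -0.04 and did not pass (limma adjusted p = 0.705). TRIB3, a pseudokinase induced by ATF4 and CHOP, was at 72.2 and 67.5 FPKM with cisplatin and 55.1 and 57.3 FPKM with vehicle, a change of 0.31 (limma adjusted p = 0.0013).

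Protein folding genes went down more often than up. Among heat shock genes, 3 of 21 rose and 10 fell (2 and 15 after scaling), with a median change of -0.23. The constitutive chaperone HSPA8 was at 395 and 399 FPKM with cisplatin and 725 and 772 FPKM with vehicle, a change of -0.91 ± 0.052 (SE) (limma adjusted p = 9.82e-06). The inducible HSPA1A and HSPA1B, near-identical copies whose reads can be split between them, changed by -0.83 and -0.85. Among ER chaperones and unfolded protein response genes, 6 of 26 rose and 9 fell (2 and 16 after scaling); the calcium-binding chaperone CALR and the disulfide isomerase PDIA4 changed by -0.42 and -0.64. NRF2 is the transcription factor of the antioxidant response, and among its targets 3 of 31 rose and 19 fell (2 and 21 after scaling). NQO1, a quinone reductase, was at 83.6 and 83 FPKM with cisplatin and 121 and 132 FPKM with vehicle, and the aldo-keto reductase AKR1C3 at 114 and 117 FPKM with cisplatin and 178 and 189 FPKM with vehicle. Heme oxygenase, HMOX1, changed by -0.22 (limma adjusted p = 0.02), a call lost without shZDHHC8 vehicle replicate 1 (-0.17, limma adjusted p = 0.104) or either shZDHHC8 cisplatin library (-0.22 and -0.21, limma adjusted p = 0.0756 and 0.0766). For HMOX1 the change after median-of-ratios scaling was -0.35 and passed (limma adjusted p = 0.00319). Among copper and platinum transporters and metallothioneins, 5 of 20 rose and 8 fell (2 and 10 after scaling). The metallothionein MT2A, which binds metals through its cysteines, was at 553 and 553 FPKM with cisplatin and 796 and 787 FPKM with vehicle (-0.52), LRRC8D, a channel subunit through which cisplatin can enter cells, changed by -0.54 and the exporter ABCC4 by -0.62.

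Lists of DNA damage signalling and repair had more members that rose than fell, as deposited and after scaling. Of all tested genes, 36.9% rose and 13.6% fell as deposited, but 21.8% rose and 22.7% fell after scaling. Among checkpoint genes, 15 of 24 rose and 1 fell (10 and 1 after scaling), with a median change of 0.32. CDC25A, the phosphatase that activates CDK2 and is degraded when the checkpoint fires, was at 12.5 and 12.3 FPKM with cisplatin and 6 and 6.52 FPKM with vehicle, a change of 0.89 ± 0.06 (SE) (limma adjusted p = 1.87e-05). ATR, the kinase that senses stalled forks, changed by 0.50. Among crosslink repair and homologous recombination genes, 20 of 42 rose and 1 fell (14 and 3 after scaling), with a median change of 0.20. BRCA2, a homologous recombination gene that overlaps ZAR1L, was at 4.75 and 4.89 FPKM with cisplatin and 2.43 and 2.49 FPKM with vehicle. BRCA1, which overlaps NBR2, was at 24.3 and 22.3 FPKM with cisplatin and 13.8 and 14.6 FPKM with vehicle. The changes were 0.75 and 0.67 (limma adjusted p = 7.63e-05 and 0.000229). In nucleotide excision repair, the main route by which platinum adducts within a strand are removed, 13 of 31 rose and 1 fell (9 and 2 after scaling). The median change of these genes was 0.16, near the 0.13 of all tested genes. The damage sensor XPC was at 11.7 and 11.7 FPKM with cisplatin and 8.08 and 8.15 FPKM with vehicle, and the helicase ERCC3 at 35.7 and 36.3 FPKM with cisplatin and 23.6 and 25.4 FPKM with vehicle, changes of 0.48 and 0.54.

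Among DNA replication genes, 27 of 46 rose and 7 fell (19 and 8 after scaling), among them the origin licensing factor CDC6, at 46.6 and 45 FPKM with cisplatin and 25.4 and 27.3 FPKM with vehicle (0.78 ± 0.059 (SE), limma adjusted p = 3.19e-05). The repressor E2F7 and the origin subunit ORC6 changed by 0.74 and 0.71, whereas MCM6, a helicase subunit, fell by 0.73 on the log2 scale. Among genes of mitosis and the kinetochore, 4 of 44 rose and 15 fell (2 and 26 after scaling), with a median change of -0.10. The mitotic kinase PLK1 was at 28.1 and 26.4 FPKM with cisplatin and 46.1 and 47.3 FPKM with vehicle (-0.76 ± 0.05 (SE), limma adjusted p = 1.7e-05), and CCNB1, cyclin B1, at 38.7 and 40.5 FPKM with cisplatin and 56.5 and 61 FPKM with vehicle. The kinesin KIF2C was among the 4 that rose, by 0.51. The proliferation marker MKI67 changed by -0.17 (limma adjusted p = 0.0249), a call lost without shZDHHC8 vehicle replicate 2 (-0.15, limma adjusted p = 0.0915) or shZDHHC8 cisplatin replicate 1 or 2 (-0.19 and -0.15, limma adjusted p = 0.0589 and 0.125). For MKI67 the change after median-of-ratios scaling was -0.32 and passed (limma adjusted p = 0.00172). Among G1 cyclins, CDKs and inhibitors, 8 of 18 rose and 2 fell (5 and 6 after scaling), with CCND1, cyclin D1, at 75.8 and 75.2 FPKM with cisplatin and 89.5 and 90.9 FPKM with vehicle (-0.25).

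Among genes of ribosome biogenesis and RNA polymerase I, 34 of 42 rose and 3 fell (20 and 4 after scaling), with a median change of 0.30. RRN3, the factor that recruits polymerase I to ribosomal DNA, was at 48 and 49.2 FPKM with cisplatin and 20.5 and 23.7 FPKM with vehicle (1.11 ± 0.067 (SE), limma adjusted p = 1.26e-05). The nucleolar GTPase GNL3 and the helicase DDX21 changed by 0.82 and 0.73. Among cytosolic ribosomal protein genes, which have many pseudogene copies, 5 of 84 rose and 35 fell (1 and 62 after scaling), with a median change of -0.13. RPS18 was at 569.6 and 617 FPKM with cisplatin and 806 and 784 FPKM with vehicle, and RPL22L1, a paralog of RPL22, rose to 11.9 and 11.7 FPKM with cisplatin, against 5.45 and 5.47 FPKM with vehicle. Among genes of transcription elongation and the 7SK complex, which holds the elongation kinase CDK9 inactive, 22 of 30 rose and 0 fell (17 and 1 after scaling). POLR2A, the largest subunit of RNA polymerase II, was at 37 and 34.9 FPKM with cisplatin and 20.7 and 18.9 FPKM with vehicle (0.83 ± 0.063 (SE), limma adjusted p = 3.13e-05), and HEXIM1, the CDK9 inhibitor, at 50.1 and 49.98 FPKM with cisplatin and 32.7 and 32.9 FPKM with vehicle.

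Among zinc finger genes named ZNF, mostly DNA-binding repressors, 271 of 425 rose and 12 fell (212 and 20 after scaling), with a median change of 0.36. ZNF165, at 4.46 and 3.87 FPKM with cisplatin and 1.31 and 1.41 FPKM with vehicle, changed most among those called (1.13). Many of them stand in clusters of related sequence, where reads can be shared. Of 70 listed histone genes 34 were tested in these poly(A)-selected libraries, and 18 of 34 rose and 5 fell (15 and 6 after scaling); most replication-dependent histone mRNAs carry no poly(A) tail. H2BC12, a histone H2B gene, was at 62.9 and 61.2 FPKM with cisplatin and 34.5 and 27.9 FPKM with vehicle (0.97). Among the 13 mitochondrially encoded genes, 7 of 13 rose and 0 fell (1 and 1 after scaling), and their share of the column total was 8.93% and 8.67% with cisplatin and 7.80% and 7.82% with vehicle. Among nuclear genes of the respiratory chain, 20 of 79 rose and 9 fell (4 and 27 after scaling). Among proteasome subunits, 23 of 46 rose and 3 fell (13 and 8 after scaling), and among SR proteins, hnRNPs and CLK kinases, 9 of 32 rose and 4 fell (6 and 14 after scaling). In the respiratory chain and the splicing lists, the side with more calls turned with the scaling.

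The matrix and adhesion genes were mostly lower. Among extracellular matrix genes, 4 of 35 rose and 24 fell (2 and 27 after scaling), with a median change of -0.44, the lowest among the lists with at least 10 tested members. FN1, fibronectin, was at 123.1 and 124 FPKM with cisplatin and 305 and 294 FPKM with vehicle, a change of -1.27 ± 0.044 (SE) (limma adjusted p = 1.36e-06). HSPG2, the basement membrane proteoglycan perlecan, was at 6.93 and 6.73 FPKM with cisplatin and 23.4 and 18.2 FPKM with vehicle (-1.47). COL18A1 and COL5A1, collagen chains, changed by -1.19 and -1.08. Against this, the laminin chain LAMB3, chosen after its values were seen, rose by 0.80. Among integrins, the receptors for this matrix, 0 of 15 rose and 9 fell (0 and 10 after scaling). ITGA3, which pairs with ITGB1 to bind laminin, was at 153 and 149.9 FPKM with cisplatin and 326 and 315 FPKM with vehicle (-1.07 ± 0.04 (SE), limma adjusted p = 1.48e-06), and ITGB1 changed by -0.43. MMP1, the interstitial collagenase that overlaps WTAPP1, was at 78.7 and 78.9 FPKM with cisplatin and 231 and 249 FPKM with vehicle (-1.59). LTBP1, which tethers latent TGF-beta in the matrix, was at 1.10 and 1.23 FPKM with cisplatin and 5.48 and 5.75 FPKM with vehicle (-1.61). Of 7 tested epithelial markers 1 rose and 4 fell, and their summed level was 639 and 616 FPKM with cisplatin, against 725 and 717 FPKM with vehicle; its part in these results was not tested. KRT5 was at 7.13 and 7.83 FPKM with cisplatin and 25.2 and 24.8 FPKM with vehicle (-1.62), whereas KRT17 was at 10.5 and 9.41 FPKM with cisplatin and 3.11 and 2.97 FPKM with vehicle (1.44).

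The remaining largest falls were in genes of varied function, many of them long. GMDS (ENSG00000112699, chromosome 6, positions 1623806 to 2245605), the enzyme that starts GDP-fucose synthesis, was at 4.14 and 4.18 FPKM with cisplatin and 19.1 and 16.8 FPKM with vehicle, a change of -1.87 ± 0.069 (SE) (limma adjusted p = 1.48e-06); it spans 622 kb. PTPRM (ENSG00000173482, chromosome 18, positions 7566782 to 8406861), a receptor tyrosine phosphatase of cell contacts, spans 840.1 kb and was at 4.51 and 4.29 FPKM with cisplatin and 16.8 and 17.9 FPKM with vehicle (-1.76). STX8, an endosomal SNARE protein spanning 326 kb, was at 2.69 and 2.34 FPKM with cisplatin and 11.1 and 11.1 FPKM with vehicle. GRID1, a glutamate receptor family gene of 767 kb, was at 1.15 and 1.18 FPKM with cisplatin and 5.94 and 5.89 FPKM with vehicle. The acid ribonuclease RNASET2 was at 7.61 and 7.42 FPKM with cisplatin and 25 and 24.2 FPKM with vehicle, and PEMT, which methylates phosphatidylethanolamine to phosphatidylcholine, at 2.41 and 2.55 FPKM with cisplatin and 8.81 and 9.93 FPKM with vehicle. The changes of STX8, GRID1, RNASET2 and PEMT lay between -1.79 and -1.57. The readthrough gene AC023055.1, which shares its strand with SARNP and DNAJC14, was at 1.17 and 1.18 FPKM with cisplatin and 4.95 and 12 FPKM with vehicle. Its change was -2.02 ± 0.33 (SE), larger in size than the -1.87 of GMDS.

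Genes of glycolysis and lipid synthesis fell more often than they rose. Among glycolysis and hypoxia genes, 5 of 34 rose and 16 fell (4 and 21 after scaling). GAPDH was at 1578 and 1526 FPKM with cisplatin and 2351 and 2310 FPKM with vehicle and PKM, pyruvate kinase, at 1267 and 1230 FPKM with cisplatin and 1819 and 1861 FPKM with vehicle, changes of -0.59 and -0.56. ANGPTL4, a lipoprotein lipase inhibitor induced by hypoxia and PPAR signalling, rose by 0.74. Among cholesterol and fatty acid synthesis genes, 5 of 32 rose and 11 fell (1 and 16 after scaling), with a median change of -0.09. Among lysosome and autophagy genes, 16 of 35 rose and 6 fell (12 and 9 after scaling). MCOLN1, the lysosomal calcium channel, was at 27.2 and 27.3 FPKM with cisplatin and 14.4 and 14.3 FPKM with vehicle, and MAP1LC3B, the autophagosome protein LC3B, at 107 and 108 FPKM with cisplatin and 65.5 and 67.2 FPKM with vehicle, changes of 0.88 and 0.69.

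Signalling lists each held members that rose and members that fell. The lists of WNT ligands, receptors and transducers and of TGF-beta had more falls than rises, as deposited and after scaling. Among WNT and beta-catenin target genes, 6 of 18 rose and 5 fell (4 and 7 after scaling), with a median change of 0.07, so the side with more calls depends on the scaling. The secreted WNT antagonist DKK1 was at 74.3 and 74.7 FPKM with cisplatin and 30.5 and 32.8 FPKM with vehicle (1.21 ± 0.057 (SE), limma adjusted p = 5.04e-06). The receptor kinase EPHB2, a target in the gut, was at 7.14 and 7.80 FPKM with cisplatin and 18.6 and 20.4 FPKM with vehicle (-1.28). Among WNT ligands, receptors and transducers, 8 of 31 rose and 10 fell (4 and 14 after scaling); the co-receptor LRP5, the receptor FZD1 and the ligand WNT7A changed by -1.06, -0.72 and -0.79. Among TGF-beta ligands, receptors, SMADs and targets, 5 of 28 rose and 9 fell (3 and 10 after scaling). ID1, an inhibitor of helix-loop-helix factors, was at 58.6 and 62.8 FPKM with cisplatin and 142 and 135 FPKM with vehicle (-1.17), and its relative ID2 rose by 0.84. Among YAP and TEAD targets, 8 of 23 rose and 7 fell (5 and 9 after scaling), with ANKRD1 highest. Among palmitoyltransferases and depalmitoylases, 14 of 29 rose and 2 fell (5 and 5 after scaling), a list led by ZDHHC8 itself, and ZDHHC14 fell by 0.54 on the log2 scale. Among interferon-stimulated genes, 12 of 34 rose and 2 fell (7 and 3 after scaling); the interferon regulatory factor IRF7 was at 17.8 and 16.4 FPKM with cisplatin and 6.85 and 6.38 FPKM with vehicle (1.25 ± 0.073 (SE), limma adjusted p = 1.02e-05) and IFI6 at 12.4 and 12.6 FPKM with cisplatin and 5.66 and 6.19 FPKM with vehicle (0.96).

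**Figure D2:**
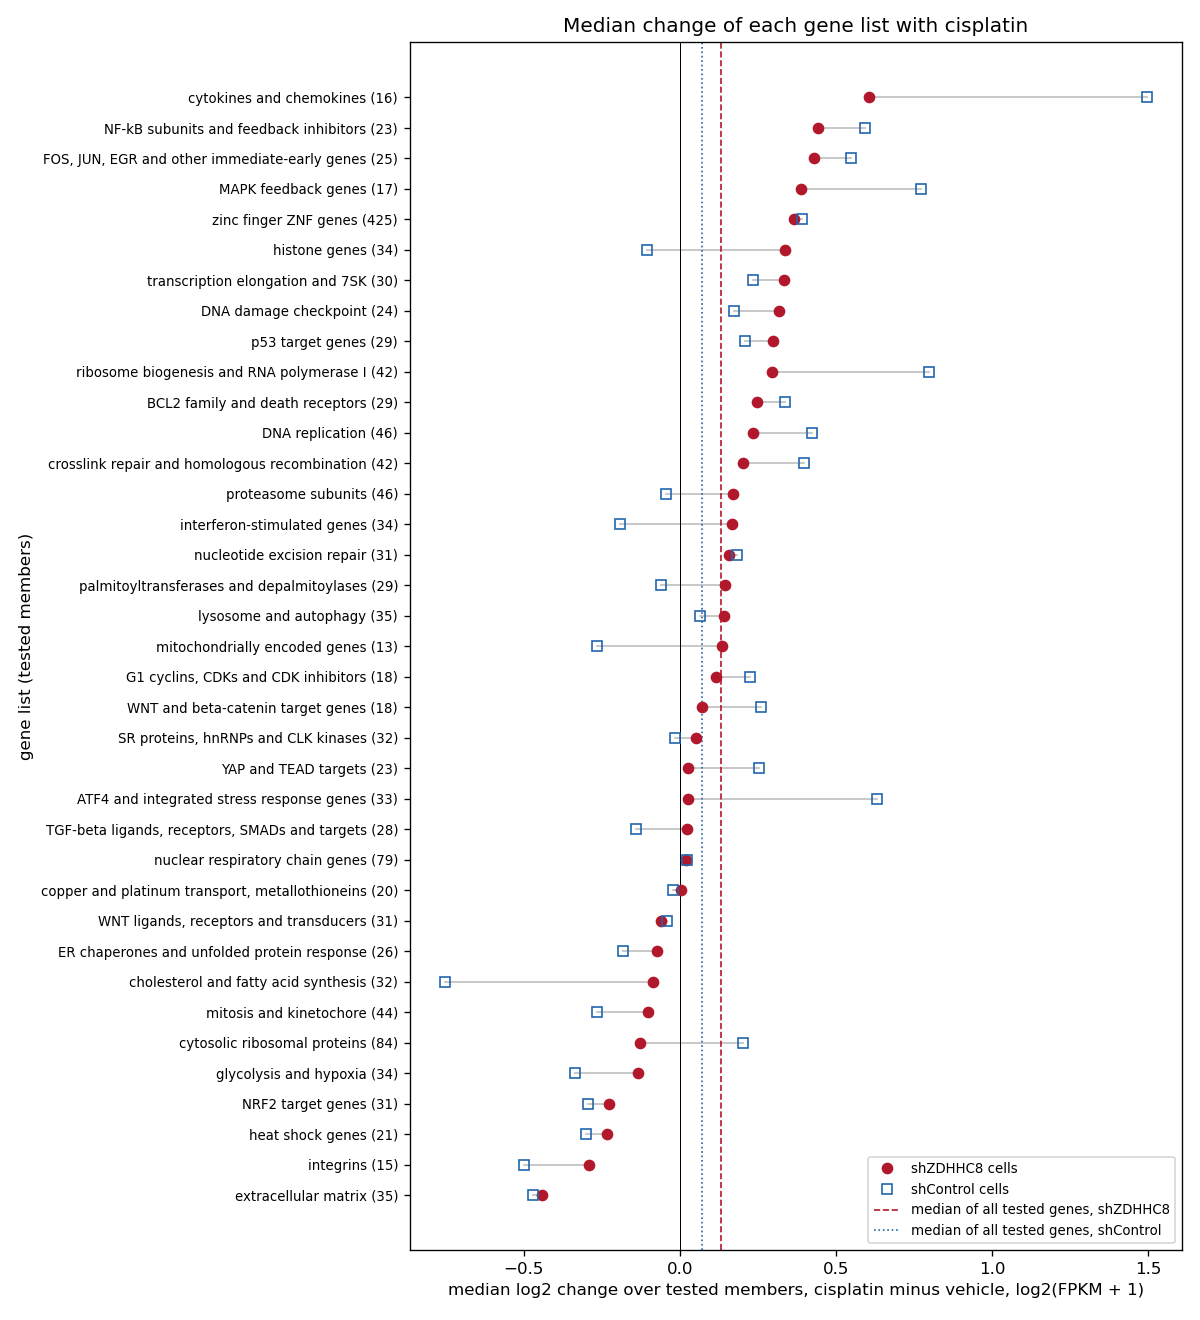
Median log2 change with cisplatin (x axis, log2(FPKM + 1)) over the tested members of each gene list with at least 10 tested members, in shZDHHC8 cells (red points) and shControl cells (blue squares); lines mark the medians of all tested genes. In shZDHHC8 cells, cytokines, NF-kB and immediate-early genes stand highest and extracellular matrix genes lowest (-0.44).

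Above 30 kb, the change with cisplatin was lower in each longer class of genes, by their length on the chromosome from start to end. Among the 11869 tested protein-coding genes, those under 10 kb had a median change of 0.16 with 41.2% called higher and 12% lower. Those of 10 to 30 kb had a median change of 0.19 with 46.5% called higher and 9.01% lower, and those of 30 to 100 kb had a median of 0.14 with 38.9% higher and 11.5% lower. At 100 to 200 kb the median was 0.02, with 24.8% higher and 21.9% lower. At 200 to 500 kb it was -0.16, with 10.9% higher and 42.1% lower. Of the 117 genes of 500 kb or more, 7 were higher and 86 lower (73.5%), with a median of -0.50. After median-of-ratios scaling the medians of the 6 classes, from short to long, were 0.02, 0.06, 0.01, -0.10, -0.28 and -0.62, in the same order. The difference between the longest class and genes under 10 kb was -0.65, and it was -0.93 with a pseudocount of 0.1 and -0.35 when genes with low values were included. At 5 FPKM or more on average, 41 genes of 500 kb or more remained, 4 higher and 30 lower, with a median of -0.48. The gene classes were described and not tested, since genes are not replicates.

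Long genes often make long mRNAs, and the 2 lengths were set apart with exon lengths of GENCODE v29, which matched 99.9% of these genes. Among genes of 200 kb or more, 52.6% of the 116 with an exonic length at or under the median of 5121 bases were lower, against 45.6% of the 708 above it. Under 100 kb the shares were 11.2% and 10.2%. At 100 to 200 kb they were 25% and 21.2%. The exonic length was cut only once, at its median, so the sizes of the differences by exonic length and by span cannot be compared. Which of the 2 lengths the fall goes with was not tested. Of the 63 protein-coding genes that fell by at least 1, 39 spanned 200 kb or more (61.9%, against 6.94% of all tested) and their median span was 343 kb, against 33.2 kb over all. Of the 97 that rose by at least 1, 75 spanned under 30 kb (77.3%, against 47.1% of all tested), with a median span of 13.7 kb. The span classes also differed in level: genes of 500 kb or more had a median of 3.75 FPKM with vehicle and genes under 10 kb a median of 13.2 FPKM.

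Single long genes, chosen here after their values were seen, included genes that fell and genes that did not. EXOC4, an exocyst subunit of 814 kb, was at 3.34 and 3.48 FPKM with cisplatin and 9.09 and 9.07 FPKM with vehicle (-1.19 ± 0.061 (SE), limma adjusted p = 6.82e-06). KAZN, a cell junction protein gene of 1225 kb, was at 4.52 and 4.37 FPKM with cisplatin and 11.1 and 12 FPKM with vehicle (-1.21). TMEM117, of 554 kb, was at 1.78 and 1.38 FPKM with cisplatin and 5 and 5.51 FPKM with vehicle (-1.28). Against the median of its class, HDAC9, a class IIa histone deacetylase gene of 915 kb, was at 6.76 and 5.83 FPKM with cisplatin and 2.66 and 2.88 FPKM with vehicle (0.95 ± 0.094 (SE), limma adjusted p = 0.000101). RUNX1, a transcription factor gene of 1217 kb, was at 15.4 and 17 FPKM with cisplatin and 11 and 11.2 FPKM with vehicle (0.51). Both of these genes have shorter transcripts from internal promoters, which a gene-level value does not separate. A part of such transcripts in these rises was not tested.

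**Figure D3:**
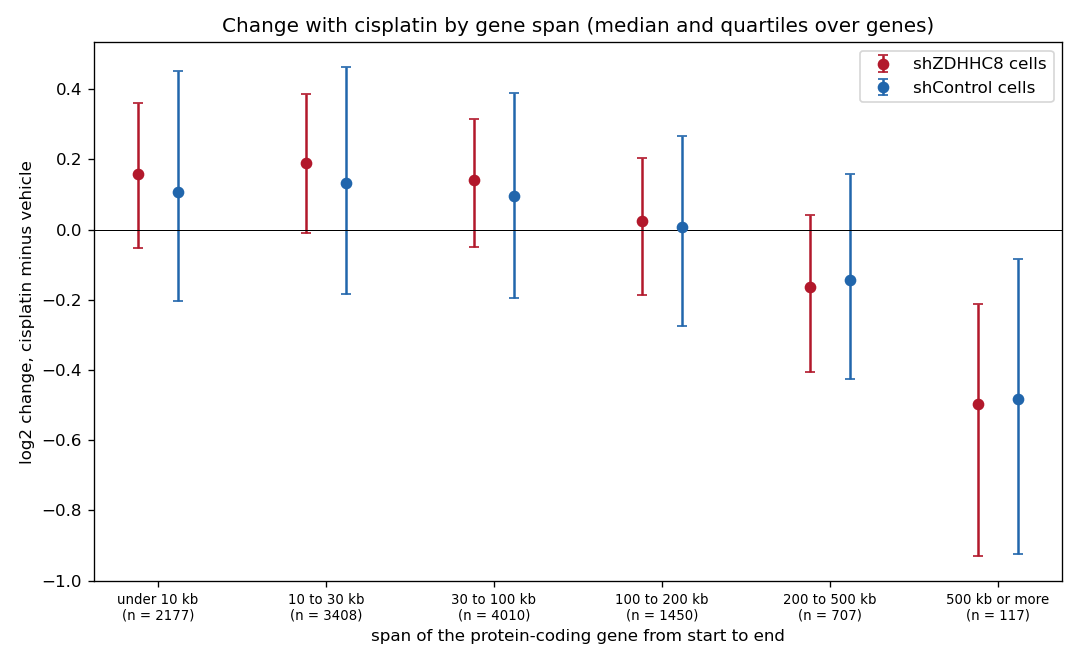
Log2 change with cisplatin (y axis) of tested protein-coding genes by the span of the gene (x axis); points are medians and bars reach to the quartiles over genes, which are not replicates, for shZDHHC8 (red) and shControl cells (blue). The median in shZDHHC8 cells was 0.19 at 10 to 30 kb and -0.50 at 500 kb or more, and in shControl cells 0.13 and -0.48.

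The same comparison in shControl cells, which uses the other 4 libraries and shares only the estimate of the spread, gave 4967 genes higher (36.8%) and 3421 lower (25.4%), with 465 (3.45%) and 270 (2%) past 1 on the log2 scale. After median-of-ratios scaling there were 4390 higher (32.5%) and 3996 lower (29.6%), with 403 (2.99%) and 334 (2.47%) past 1. The SD of the log2 changes over all tested genes was 0.355 in shZDHHC8 cells and 0.512 in shControl cells, and the interquartile range 0.408 and 0.613. Of the 4976 genes higher in shZDHHC8 cells, 3426 were also higher in shControl cells (68.9% of the shZDHHC8 set and 69.0% of the shControl set). Of the 1841 lower, 1358 were also lower in shControl cells (73.8% of the shZDHHC8 set and 39.7% of the shControl set). The changes of the 2 backgrounds had a Pearson's r of 0.663 across the 13495 genes, which are not independent replicates. The interaction, the change in shZDHHC8 cells minus that in shControl cells, was called higher for 2298 genes (17%) and lower for 1806 (13.4%), with 168 (1.24%) and 97 (0.719%) past 1 on the log2 scale, and for 1714 (12.7%) and 2545 (18.9%) after median-of-ratios scaling. Among the 3426 genes higher in both, the change was smaller in shZDHHC8 cells for 850 and larger for 80. Among the 1358 lower in both, it was smaller in size for 395 and larger for 64. The fall of long genes was present in both backgrounds: at 500 kb or more the median change was -0.50 in shZDHHC8 and -0.48 in shControl cells, and the interaction, with a median of -0.09, was higher for 10 and lower for 30 of 117 genes.

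Several genes that rose in both backgrounds rose less in shZDHHC8 cells. GADD45A, at 325 and 323 FPKM with cisplatin and 107 and 104 FPKM with vehicle in shZDHHC8 cells, was at 806 and 789 FPKM with cisplatin and 91.3 and 92.6 FPKM with vehicle in shControl cells, a difference in change of -1.49 ± 0.056 (SE) (limma adjusted p = 8.31e-06). CXCL8 was at 242 and 223 FPKM with cisplatin and 32.1 and 33.9 FPKM with vehicle in shControl cells, and its difference in change was -1.42 (limma adjusted p = 8.72e-05). For IL6 the shControl libraries held 98.9 and 96.2 FPKM with cisplatin and 15.7 and 15.6 FPKM with vehicle, so that shZDHHC8 cells with cisplatin lay below shControl cells with vehicle. The change in IL6 was 2.57 there, and the difference was -1.002 (limma adjusted p = 0.000565). The log2(FPKM + 1) scale understates changes of low genes, and with vehicle IL6 was lower in shZDHHC8 than in shControl cells. How much of the difference in IL6 this makes was not tested. CCL20 rose by 1.00 in shZDHHC8 cells and by 3.26 in shControl cells (limma adjusted p = 9.62e-05 for the difference). Over the lists, the interaction was called higher and lower for 2 and 11 of 16 cytokines, 3 and 11 of 23 NF-kB genes and 2 and 9 of 17 MAPK feedback genes. After median-of-ratios scaling these counts were 2 and 11, 3 and 13 and 2 and 9. Over all tested genes the interaction was higher for 17% and lower for 13.4%, or 12.7% and 18.9% after that scaling. By contrast, ATF3 (2.20 and 2.28) and TNFAIP3 (2.14 and 2.34) had no called difference (limma adjusted p = 0.485 and 0.117), although that of TNFAIP3 passed after median-of-ratios scaling (-0.27, limma adjusted p = 0.0425).

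For the integrated stress response, the interaction was higher for 1 and lower for 25 of 33 genes, whose median change was 0.02 in shZDHHC8 cells and 0.63 in shControl cells. TRIB3 rose by 0.31 in shZDHHC8 cells and by 2.04 in shControl cells, where it was at 106 and 105 FPKM with cisplatin and 25.3 and 24.3 FPKM with vehicle (-1.74 ± 0.072 (SE), limma adjusted p = 8.31e-06). ASNS and PHGDH changed by -0.35 and -0.45 in shZDHHC8 cells, against 0.29 and 0.43 in shControl cells. Ribosomal protein genes had 0 and 50 of 84 with a higher and a lower interaction, and ribosome biogenesis genes 0 and 27 of 42. After median-of-ratios scaling the counts were 1 and 26 for the integrated stress response, 0 and 65 for ribosomal proteins and 0 and 32 for ribosome biogenesis. The shares over all tested genes were 17% higher and 13.4% lower, or 12.7% and 18.9% after scaling. CCND1 fell by 0.25 on the log2 scale in shZDHHC8 cells and rose by 1.16 in shControl cells, where it was at 106 and 108 FPKM with cisplatin and 46.7 and 47.7 FPKM with vehicle (limma adjusted p = 8.31e-06 for the difference). TNC, the matrix protein tenascin C, fell by 0.94 in shZDHHC8 cells and rose by 0.66 in shControl cells (limma adjusted p = 4.91e-05 for the difference).

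In other lists most called differences were positive. Cholesterol and fatty acid synthesis genes had 28 and 0 of 32 with a higher and a lower interaction, and their median change was -0.09 in shZDHHC8 cells and -0.75 in shControl cells. Interferon-stimulated genes had 21 and 0 of 34, mitochondrially encoded genes 12 and 0 of 13 and histone genes 19 and 1 of 34. After median-of-ratios scaling the counts were 25 and 0, 18 and 1, 10 and 0 and 19 and 1 in the same order of lists. All tested genes had 17% higher and 13.4% lower, or 12.7% and 18.9% after scaling. HEXIM1 changed by 0.60 in shZDHHC8 cells and by -0.66 in shControl cells, where it was at 32.7 and 33.8 FPKM with cisplatin and 51.6 and 54.5 FPKM with vehicle (1.25 ± 0.067 (SE), limma adjusted p = 2.57e-05). BMF was 0.59 in shZDHHC8 and -1.10 in shControl cells (limma adjusted p = 6.66e-05 for the difference). The epithelial transcription factor ELF3, which overlaps ELF3-AS1, was at 8.55 and 8.69 FPKM with cisplatin and 4.47 and 4.59 FPKM with vehicle in shZDHHC8 cells, and at 5.92 and 5.43 FPKM with cisplatin and 17.4 and 17.3 FPKM with vehicle in shControl cells (2.26 ± 0.088 (SE), limma adjusted p = 8.31e-06). Several of the largest differences were in genes that fell in shControl cells and were already low with vehicle in shZDHHC8 cells. VAV3, a guanine nucleotide exchange factor, was at 0.898 and 0.502 FPKM with cisplatin and 1.01 and 0.966 FPKM with vehicle in shZDHHC8 cells, and at 0.228 and 0.189 FPKM with cisplatin and 9.97 and 9.25 FPKM with vehicle in shControl cells. IDO1, the tryptophan-degrading enzyme, was at 0.971 and 1.42 FPKM with cisplatin and 1.18 and 1.70 FPKM with vehicle in shZDHHC8 cells, and at 3.70 and 3.59 FPKM with cisplatin and 19.4 and 19.4 FPKM with vehicle in shControl cells. Neither changed past the threshold in shZDHHC8 cells (limma adjusted p = 0.13 and 0.336).

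**Figure D4:**
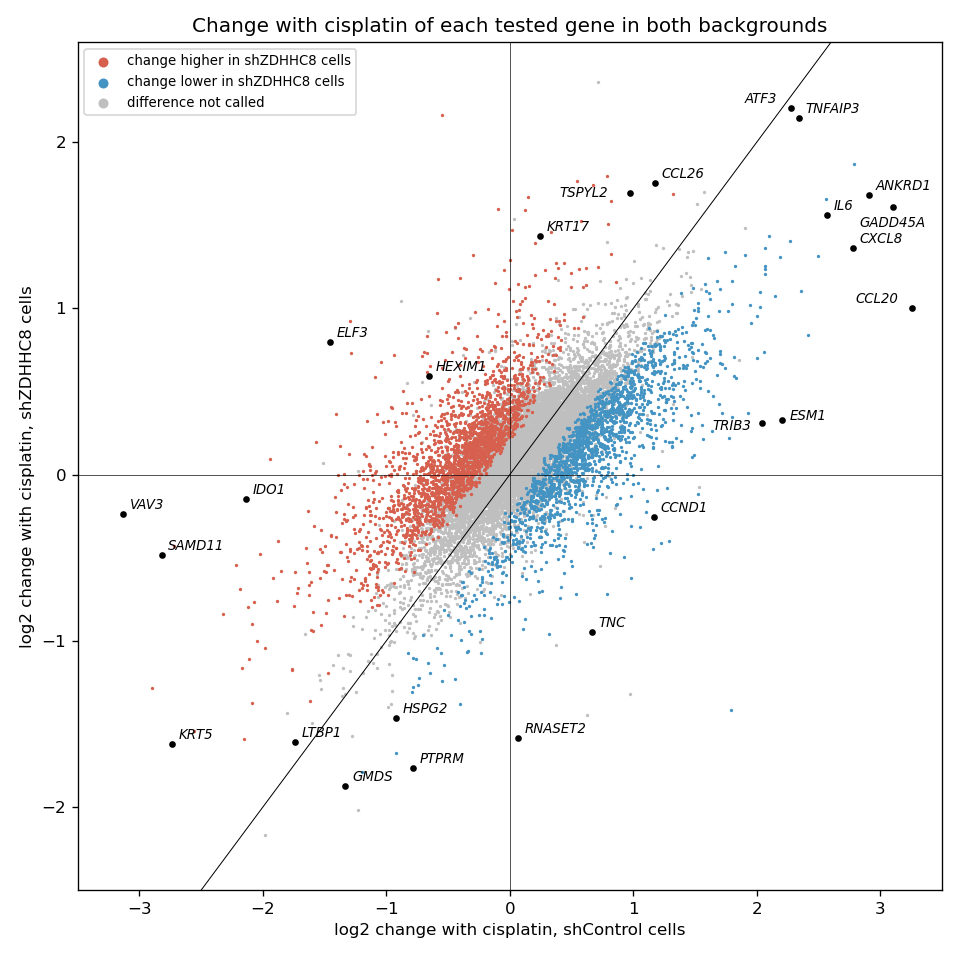
Log2 change with cisplatin of each of the 13495 tested genes in shControl cells (x axis) and in shZDHHC8 cells (y axis); the diagonal marks equal changes, and colours mark a called difference (higher in red, 2298 genes; lower in blue, 1806 genes). ATF3 and TNFAIP3 lie near the diagonal, GADD45A, CXCL8 and CCL20 below it, and ELF3 and VAV3 above it.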

How the data were processed

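Poly(A)-selected RNA was sequenced, per the labels' protocols. The values of the 8 libraries that the authors deposited in 1 table were taken as FPKM: the table names no unit, but the values are not whole, the columns sum to different totals and genes at 0 in all libraries (402) are listed. The build is hg38, per the submitters' processing notes; no aligner, quantifier or annotation is named in the sources used here. No step of a whole read was found: a ratio between replicates recurred in at most 6 to 7 of 1885 to 2074 low long non-coding genes.

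Values were used as deposited. In R 4.3.3, limma 3.58.1 was fitted to log2(FPKM + 1) of 13495 genes (1 FPKM or more in at least 2 libraries), with 1 mean per group over all 8 libraries and a trended eBayes (residual degrees of freedom 4, prior 4.64). The scale understates changes of low genes. Contrasts were cisplatin minus vehicle in shZDHHC8 and in shControl cells and their difference, each adjusted by Benjamini-Hochberg over all tested genes (threshold 0.05). The median SE was 0.079, and 0.11 for the difference. P-values measure the spread between the 2 libraries of a group, which may be technical. The script was tested on simulated data.

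The question, gene lists and naming rule were chosen with earlier results of these data known. Named genes are ZDHHC8 and CTNNB1; the 12 largest rises and falls among called protein-coding genes at 5 FPKM or more in the higher group and changed the same way in all 4 pairs; up to 5 called members per list with the largest change; 20 marker genes of stress and growth; and the 8 largest differences each way between the backgrounds. Others were chosen after their values were seen, and a few genes that follow the rule are not reported here. Lists are described by counts and medians, with no set test. Alternatives were a pseudocount of 0.1, no filter, 2 scalings, eBayes without a trend, a replicate block, the 4 shZDHHC8 libraries alone and each library left out.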

Additional observations from a re-analysis of the deposited data

Results flagged for a closer look

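Each result here was singled out because the response to cisplatin differed between shZDHHC8 and shControl cells by the test of the difference itself. This held for 2298 genes whose log2 change was higher in shZDHHC8 cells and 1806 whose log2 change was lower (limma adjusted p below 0.05). A higher change is not always a stronger response. Among the 2298, 989 were called lower only in shControl cells and 395 were lower in both. Another 509 were called higher only in shZDHHC8 cells, 277 were higher there and lower in shControl cells, and 80 were higher in both. No explanation was weighed. In the values that follow, the difference is the log2 change in shZDHHC8 cells minus that in shControl cells.

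The largest negative differences were in NDUFC2-KCTD14 (-3.21), CCL20 (-2.26), ESM1, an endothelial proteoglycan gene (-1.87), TRIB3 (-1.74), RNASET2 (-1.65), the long non-coding genes SNHG8 (-1.64) and CASC19 (-1.64), and TNC (-1.61). NDUFC2-KCTD14 is a readthrough gene that shares its strand with both parent genes, its libraries of a group differed widely (5.32 and 39 FPKM with cisplatin and 38.5 and 44.7 FPKM with vehicle in shZDHHC8 cells), and its call was lost in 6 of the 8 fits that left out 1 library. Among the stress and growth genes listed for this purpose the difference was -1.49 for GADD45A, -1.42 for CCND1, -1.42 for CXCL8, -1.002 for IL6, -0.94 for MYC, -0.54 for JUN, -0.53 for FN1, -0.52 for DDIT3 and -0.41 for CDKN1A.

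The largest positive differences were in VAV3 (2.90), SAMD11 (2.34), the long non-coding gene AL079338.1 (2.29), ELF3 (2.26), the linker histone gene H1-2 (2.02), IDO1 (1.99), ZNF852 (1.78) and PROC, the protein C gene (1.76). All 8 fell in shControl cells, with changes from -1.29 for H1-2 to -3.13 for VAV3. With vehicle, SAMD11 was at 1.77 and 1.30 FPKM in shZDHHC8 cells and at 14.1 and 14.1 FPKM in shControl cells, and AL079338.1 at 1.69 and 1.49 FPKM in shZDHHC8 cells and at 9.49 and 9.76 FPKM in shControl cells. Of the stress and growth genes the difference was 0.28 for MKI67, 0.29 for XPC, 0.86 for EGR1, 1.12 for KRT5 and 1.19 for FOS. EGR1 was at 3.09 and 3.73 FPKM with cisplatin and 1.97 and 2.15 FPKM with vehicle in shZDHHC8 cells, and at 22 and 23.4 FPKM with cisplatin and 28.1 and 29.7 FPKM with vehicle in shControl cells. After median-of-ratios scaling the differences for MKI67 (0.20, limma adjusted p = 0.071) and XPC (0.22, limma adjusted p = 0.0779) lost their calls. The call for MKI67 was also lost in 4 of the 8 fits that left out 1 library (0.23 to 0.27, limma adjusted p = 0.0557 to 0.0834). The call for XPC was lost in 7 of the 8 (0.24 to 0.32, limma adjusted p = 0.0594 to 0.106) and with the replicate block (limma adjusted p = 0.0527).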

How the results depend on the processing

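Median-of-ratios scaling gave 2944 genes higher and 3070 lower with cisplatin in shZDHHC8 cells, and 83 and 111 past 1 on the log2 scale; JUN turned from a called 0.13 to -0.01427 (limma adjusted p = 0.801). A pseudocount of 0.1 gave 352 genes higher and 221 lower past 1 on the log2 scale, and a difference between the longest and the shortest gene class of -0.9281, against -0.3484 with no filter on low values. Among genes that overlap no other listed gene, a set chosen after seeing the data, the main fit called 2573 higher and 981 lower. The interaction was higher for 1197 and lower for 974 of them. These counts are lower by construction, since fewer genes were counted in the same fit. The number of such genes is not given here, so shares cannot be compared. The block for replicate number gave 4814 higher and 1776 lower, and 2098 and 1660 for the interaction. Same-numbered libraries did not visibly deviate together (r of -0.052 to 0.020 over 6 pairs of groups). That does not settle whether they share more than a number. With each library left out in turn, 3770 to 4968 were higher, 1376 to 1833 lower, 132 to 148 and 69 to 84 past 1 on the log2 scale, 1577 to 2004 and 1309 to 1550 in the interaction, and the span difference was -0.671 to -0.650; where a group kept 1 library, it was assumed to vary like the others. The other counts and the span difference stayed within 1.5 times or the spread under the remaining alternatives. Among results for single genes and lists, 6866 were counted as the same, 320 lost and 45 gained a call, 70 medians or values moved and 1 turned. A turn of a gene was counted only where either fit called it, so FOS, uncalled, counted as the same although its sign changed. Medians were judged by the spread between libraries, not by direction or threshold. A count-based test was not run, since the values are not counts. Precision rests on 2 libraries per group, and depth is unknown.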

Other observations

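Some genes changed against the direction of most called members of their list in shZDHHC8 cells; they were chosen after their values were seen. Among NRF2 targets, OSGIN1, an oxidative stress growth inhibitor, was at 24.9 and 24.5 FPKM with cisplatin and 15.3 and 15 FPKM with vehicle (0.67, limma adjusted p = 0.000124). AKR1B10, an aldo-keto reductase, changed by 0.62 (limma adjusted p = 0.00526). HSF1, the transcription factor of the heat shock response, was at 72 and 71.1 FPKM with cisplatin and 54.3 and 53 FPKM with vehicle (0.41), while the chaperone genes it drives, HSPA8, HSPA1A and HSPA1B, fell. In the unfolded protein response list, the ER ubiquitin ligase SYVN1 rose by 0.46. Among ribosome biogenesis genes, UBTF, the architectural factor of ribosomal DNA transcription, was at 33.8 and 32.9 FPKM with cisplatin and 45.5 and 45.3 FPKM with vehicle (-0.43, limma adjusted p = 0.000116), and nucleophosmin, NPM1, changed by -0.39. Among replication genes, the sliding clamp PCNA changed by -0.30 and the helicase subunit MCM5 by -0.32. The DNA ligase LIG1 was the 1 excision repair gene that fell (-0.36), H2AX the 1 checkpoint gene (-0.19), PLK2 the 1 p53 target (-0.25) and SPRY1 the 1 MAPK feedback gene (-0.49). The splicing kinases CLK1, CLK3 and CLK4 rose by 0.55, 0.47 and 0.48, which as deposited was the direction of most called members (9 rose and 4 fell). After median-of-ratios scaling they rose by 0.41, 0.33 and 0.35, against most called members of their list (6 of 32 rose and 14 fell).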
